A study of Mus musculus with 2 samples.

Results

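The CDK inhibitor genes of the mouse are described here in G1E-ER4 cells. They were matched by gene symbol, and their 8 members are Cdkn1a, Cdkn1b, Cdkn1c, Cdkn2a, Cdkn2b, Cdkn2c, Cdkn2d and Cdkn3. They are 8 of 43346 mouse genes measured, and their 14 transcripts are 14 of 103639. G1E-ER4 is an immortalized line of mouse erythroid precursors whose own Gata1 gene is disrupted. It carries a fusion of GATA1, the master transcription factor of red cells, with the hormone-binding part of an estrogen receptor, and estradiol activates this fusion. Polyadenylated RNA was sequenced from 1 group of 2 libraries, called replicate 1 and replicate 2, and every cell in both had received 10 nM 17beta-estradiol for 3 h. There was no untreated group. The labels number the libraries as biological replicates yet tie both to a single cell sample, and the spread between them may be technical. The line is a clone, so the values speak for that clone. The values are therefore levels in induced cells, and no change on induction was measured.

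Cyclin-dependent kinases (CDKs) drive the cell cycle when bound to cyclins, and the inhibitors hold them back. The INK4 proteins (p16INK4a, p15INK4b, p18INK4c and p19INK4d, from Cdkn2a, Cdkn2b, Cdkn2c and Cdkn2d) bind CDK4 and CDK6 and keep them from D-type cyclins. The CIP/KIP proteins (p21, p27 and p57, from Cdkn1a, Cdkn1b and Cdkn1c) bind complexes of cyclin and kinase, above all those of CDK2. Cdkn3 encodes a phosphatase that removes an activating phosphate from CDK2 and CDK1. Red cell precursors divide several times and then leave the cell cycle as they mature, and p27 and p18INK4c are among the inhibitors known for that exit.

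The libraries held 31126957 expected counts in replicate 1 and 57853617 in replicate 2. An expected count is the authors' estimate of the fragments of a gene, and TPM (transcript abundance as a share of all transcripts, in parts that sum to the same total in each library) is that estimate scaled to transcript length. All 9 erythroid markers examined had at least 1 TPM in both libraries, with summed levels of 2319 TPM in replicate 1 against 17607 TPM in replicate 2. Among these markers the libraries differed most in the globins Hba-a1, at 149 TPM in replicate 1 against 6606 TPM in replicate 2, and Hbb-bs, at 863 TPM in replicate 1 against 9484 TPM in replicate 2. The part of that difference in the results on the inhibitors was not tested. Of 5 megakaryocyte markers 1, Itga2b, was detected, and the list summed to 12.7 TPM in replicate 1 against 14.7 TPM in replicate 2. None of 5 markers each of mast cells, of granulocytes and monocytes, of lymphocytes and of fibroblasts reached 1 TPM in both libraries, and no such list summed above 0.83 TPM in either.

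Some inhibitor genes have alternative first exons, and the sequences before 3 such starts are printed because the results on transcripts turn on them. They are RefSeq promoter sequences on build GRCm38.p6, each covering the 250 bases before a start and read 5′ to 3′ on the gene's strand. Capitals mark matches to GATA hexamers or to a pair of p53 half-sites. The upstream start of Cdkn1a is preceded by chr17:29090729-29090978 on the plus strand, and its downstream start by chr17:29093519-29093768. The downstream start of Cdkn2c is preceded by chr4:109665373-109665622 on the minus strand.
Cdkn1a upstream: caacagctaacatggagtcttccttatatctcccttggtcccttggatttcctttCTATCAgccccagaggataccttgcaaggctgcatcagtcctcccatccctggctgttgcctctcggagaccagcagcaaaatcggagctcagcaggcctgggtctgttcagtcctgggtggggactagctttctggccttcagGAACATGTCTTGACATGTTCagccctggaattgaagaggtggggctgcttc
Cdkn1a downstream: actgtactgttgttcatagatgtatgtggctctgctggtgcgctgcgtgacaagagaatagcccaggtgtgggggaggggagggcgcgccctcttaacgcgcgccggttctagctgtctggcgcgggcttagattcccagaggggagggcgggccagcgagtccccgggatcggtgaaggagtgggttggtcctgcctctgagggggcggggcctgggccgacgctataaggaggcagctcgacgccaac
Cdkn2c downstream: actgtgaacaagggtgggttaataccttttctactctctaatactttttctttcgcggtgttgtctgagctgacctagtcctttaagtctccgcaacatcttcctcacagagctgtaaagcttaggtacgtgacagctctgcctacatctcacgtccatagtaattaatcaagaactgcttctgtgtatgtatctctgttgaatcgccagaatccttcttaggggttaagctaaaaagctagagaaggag

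The sequence before the upstream Cdkn1a start held 1 GATA hexamer and 1 pair of p53 half-sites. The pair lay at chr17:29090928-29090947, centred 42 bases before the start, and was allowed 1 base off the p53 consensus. It did not overlap the GATA hexamer. Cdkn1a is a classic target of p53. The sequence before the downstream Cdkn1a start held neither, but had 2 GC boxes (GGGCGG) and a GC content of 64.8%, against 54% upstream. The sequence before the downstream Cdkn2c start held none of the motifs searched and had a GC content of 42.8%. RefSeq also gives an upstream Cdkn2c start. Its window, which lies within the first exon of Cdkn2c-202 and is not printed, held 3 GC boxes at a GC content of 77.2%.

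The motifs were searched on both strands in 10 promoters of 7 members. No Cdkn1c promoter was used. The GATA hexamers searched were AGATAA with its variant AGATAG, and TGATAA with its variant TGATAG. Of 32851 RefSeq promoters of the same length, 26.5% held at least 1 of them. Among the members' promoters only the upstream Cdkn1a promoter held one. The p53 pair was found in 0.0761% of all promoters, the GC box in 32.7% and the E-box CACGTG, which the MYC family binds, in 6.02%. Of the 10 member promoters 6 held a GC box, and none held that E-box. E2F octamers (TTTCCCGC, TTTCGCGC, TTTGCCGC or TTTGGCGC) were in 1.86% of all promoters and, among members, in the promoter of the Cdkn2a transcript that encodes p19Arf. A match is a description of letters, and none of these sites was shown to be bound.

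Of the 8 inhibitor genes 5 were detected, that is, had at least 1 TPM in both libraries, and the other 3 had at most 1 count in all. Of all protein-coding genes 38.6% were detected by the same rule, and of all genes 20.2%. In TPM, Cdkn2c stood highest, followed by Cdkn1a, Cdkn1b, Cdkn2d and Cdkn3, in the same order in both libraries. In expected counts Cdkn1b stood above Cdkn1a in both. Cdkn2a, Cdkn2b and Cdkn1c were at or near 0. In RNA from many cells, a low level from few cells and one from little RNA per cell cannot be told apart.

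Cdkn2c (ENSMUSG00000028551.10, chr4:109660876-109667189, minus strand of GRCm38) encodes p18INK4c. It had 184 TPM in replicate 1 against 127 TPM in replicate 2, a mean of 155 ± 40.7 TPM (SD, n = 2), from 10644 and 14552 expected counts. The exact Poisson 95% intervals for counting error were 181 to 188 TPM in replicate 1 and 125 to 129 TPM in replicate 2, so the libraries differed by more than counting error. It ranked above 96.0% of protein-coding genes in replicate 1 and nearly as high in replicate 2. It alone made up 50.7% of the summed TPM of the 8 members in replicate 1 and 50.0% in replicate 2.

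Cdkn2d (ENSMUSG00000096472.1, chr9:21288410-21291407, minus strand), which encodes p19INK4d, was the other INK4 gene detected. It had 13.0 TPM in replicate 1 against 20.2 TPM in replicate 2, from 367 and 1182 expected counts, a mean of 16.6 ± 5.03 TPM (SD, n = 2). Its share of the summed TPM of the members was 3.59% in replicate 1 and 7.95% in replicate 2. Unlike Cdkn2c it was higher in replicate 2, and the counting intervals of 11.7 to 14.4 TPM in replicate 1 and 19.02 to 21.34 TPM in replicate 2 did not overlap.

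Among the CIP/KIP genes, Cdkn1a (ENSMUSG00000023067.9, chr17:29090976-29100727, plus strand), the gene for p21, had 85.2 TPM in replicate 1 against 53.2 TPM in replicate 2, a mean of 69.2 ± 22.7 TPM (SD, n = 2). Cdkn1b (ENSMUSG00000003031.10, chr6:134920401-134925513, plus strand), the gene for p27, had 76.1 TPM in replicate 1 against 47.3 TPM in replicate 2, a mean of 61.7 ± 20.4 TPM (SD, n = 2). Both were higher in replicate 1. Cdkn1a rested on 1524 and 2261 expected counts and Cdkn1b on 4507 and 6161, so the gene with fewer counts had the higher level per length.

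Cdkn3 (ENSMUSG00000037628.9, chr14:46760541-46771669, plus strand) was the lowest of the detected members. It had 4.56 TPM in replicate 1 against 6.18 TPM in replicate 2, from 72 and 201 expected counts, a mean of 5.37 ± 1.15 TPM (SD, n = 2). Its counting intervals, 3.57 to 5.74 TPM in replicate 1 and 5.35 to 7.09 TPM in replicate 2, overlapped.

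**Figure D1:**
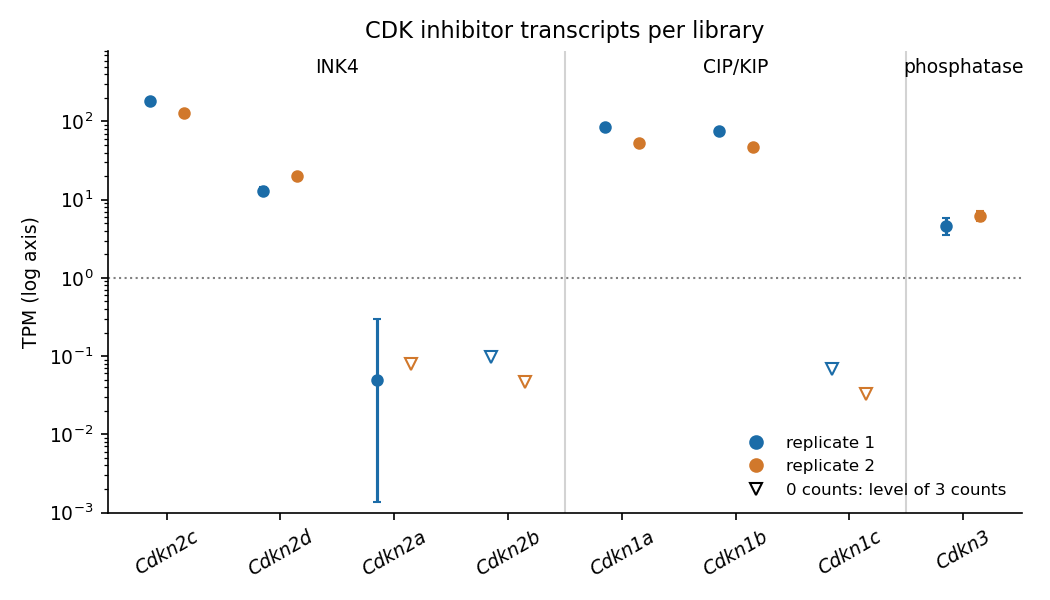
Level of each CDK inhibitor gene in TPM on a log axis, for replicate 1 and replicate 2, with exact Poisson 95% intervals for counting error as bars. The 5 detected genes lie above the dotted line at 1 TPM, from 4.56 to 184 TPM, and open triangles mark genes with 0 counts at the level that 3 counts would give.

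The order of levels was set against the spread between libraries by placing each gene beside its neighbour within a library, as log2 ratios with 1 TPM added to each level, which understates the gaps of low genes. Cdkn2c exceeded Cdkn1a by 1.17 ± 0.10 log2 units on that scale (SD, n = 2), Cdkn1b exceeded Cdkn2d by 1.82 ± 0.90, and Cdkn2d exceeded Cdkn3 by 1.45 ± 0.16. For these pairs the values of the 2 libraries did not overlap. Cdkn1a exceeded Cdkn1b by only 0.16 ± 0.003, and their ranges over the libraries overlapped, although their counting intervals did not overlap within either library. In expected counts that pair stood the other way, with log2 ratios of Cdkn1a over Cdkn1b of −1.56 in replicate 1 and −1.45 in replicate 2. The effective length was 721 bases for Cdkn1a and 2387 bases for Cdkn1b in replicate 1, and 812 and 2486 bases in replicate 2. The order of this pair therefore rests on the lengths of the transcripts counted.

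The other 3 members were not detected. Cdkn2a (ENSMUSG00000044303.6, chr4:89274471-89294653, minus strand) encodes p16INK4a and, from another first exon, p19Arf, which blocks the p53 antagonist MDM2. It had 1 expected count in replicate 1, or 0.05 TPM, and 0 in replicate 2. Cdkn2b (ENSMUSG00000073802.4, chr4:89306299-89311039, minus strand), the gene for p15INK4b, had 0 counts in both libraries. A count of 0, read as at most 3 counts, allows up to 0.0962 TPM of Cdkn2b in replicate 1 and 0.0461 TPM in replicate 2, and up to 0.0793 TPM of Cdkn2a in replicate 2. Cdkn1c (ENSMUSG00000037664.8, chr7:143458339-143461050, minus strand), the imprinted gene for p57, had 0 counts too, which allows up to 0.0681 TPM in replicate 1 against 0.0325 TPM in replicate 2. A level of 0 is common: 40.6% of all protein-coding genes and 63.8% of all genes had no count in either library, beside 2 of the 8 members.

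The protein-coding genes nearest Cdkn2a and Cdkn2b on chromosome 4 were also nearly without counts. Mtap (chr4:89137122-89181081), which encodes the widely expressed methionine salvage enzyme, had 0 counts in both libraries, which allows up to 0.0785 TPM in replicate 1 against 0.0375 TPM in replicate 2. Ifne, an interferon gene, had 0 counts, and Dmrta1, a gene of the doublesex family, had 0 in replicate 1 and 1 in replicate 2. Klhl9 (chr4:88718292-88722465), an adaptor of a ubiquitin ligase, was detected, with 1742 expected counts and 17.4 TPM in replicate 1 and 1440 expected counts and 6.83 TPM in replicate 2. A gene model on the other strand that overlaps Klhl9, Gm26566, had 3 counts in each library. From the end of Klhl9 to the next detected protein-coding gene, Gm12666, lay 3468 kb with 28 protein-coding genes. Of these, 24 had no count and 4, namely Gm13290, Cdkn2a, Dmrta1 and Elavl2, had 1 count each. Other kinds of gene in this stretch were not all without counts. The processed pseudogene Gm12671, near its far end, had 9.87 TPM in replicate 1 against 167 TPM in replicate 2, from 212 and 7442 expected counts, and its neighbour Gm12669 had 6 and 9. From Klhl9 to Gm12671, the next detected gene of any kind, lay 3129 kb. Gm12666 had 5.36 TPM in replicate 1 against 16.4 TPM in replicate 2. Whether fragments from similar sequences elsewhere were assigned to Gm12671, Gm12669 or Gm12666 was not tested, so both spans rest on these assignments. This window was chosen after its values were seen, and many genes in it are interferon genes. RNA levels do not show the state of the DNA there, and a cause was not tested.

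**Figure D2:**
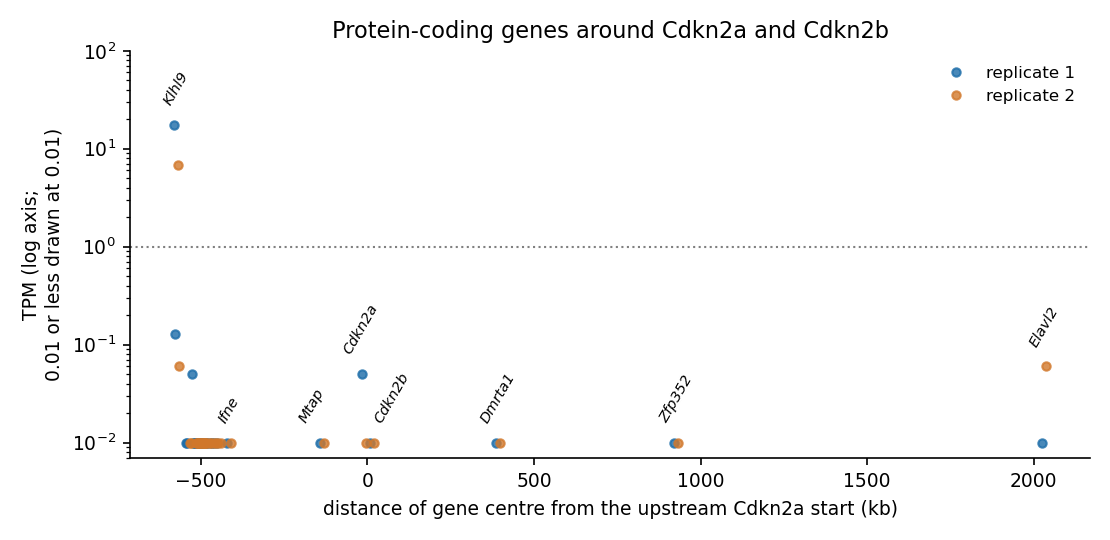
TPM on a log axis of protein-coding genes on chromosome 4, against the distance of each gene's centre from the upstream Cdkn2a start, for replicate 1 and replicate 2. Klhl9 stands at 17.4 and 6.83 TPM above the dotted line at 1 TPM, and Mtap, Cdkn2b and Dmrta1 lie at the floor of 0.01 TPM.

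The neighbours of Cdkn1c, which shares an imprinted domain with several of them, were examined too. Nap1l4, a histone chaperone, had 69.9 TPM in replicate 1 against 61.4 TPM in replicate 2. Cd81, a tetraspanin, had 82.7 TPM in replicate 1 against 79.9 TPM in replicate 2. Tssc4 had 227 TPM in replicate 1 against 179 TPM in replicate 2. These 3 of the 7 genes on the list (42.9%) were detected, beside 38.6% of all protein-coding genes and 20.2% of all genes. The others lay below 1 TPM. Kcnq1, a potassium channel, had 1 count in replicate 1 and 0 in replicate 2, and Phlda2 had 0 in both. Slc22a18 had 0 counts in replicate 1 and 39 in replicate 2, or 0.64 TPM. Kcnq1ot1, the long noncoding RNA that silences the domain on the paternal chromosome, had 0.08 TPM in replicate 1 against 0.06 TPM in replicate 2, from 175 and 284 expected counts.

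Of the 8 members, Cdkn2b, Cdkn2d and Cdkn3 had a single transcript in the tables. That of Cdkn2d, Cdkn2d-201, has an annotated coding sequence of 150 bases, shorter than those of the other detected members. Whether it holds the full coding sequence of p19INK4d was not tested. Cdkn1a had 3, and Cdkn1b, Cdkn1c, Cdkn2a and Cdkn2c had 2 each. In the annotation the transcripts of Cdkn1a share 1 coding sequence of 477 bases, those of Cdkn1b 1 of 591 bases and those of Cdkn2c 1 of 504 bases. Their division therefore concerns starts and untranslated parts, not the protein. For Cdkn2a the 2 transcripts encode different proteins, p16INK4a and p19Arf. The 2 Cdkn1c transcripts have annotated coding sequences of 1005 and 1044 bases, and the proteins they encode were not compared. The single Cdkn2a count was assigned to Cdkn2a-202, the p19Arf transcript.

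Most Cdkn2c RNA was assigned to Cdkn2c-202, which made up 99.7% of the gene's TPM in replicate 1 and 90.7% in replicate 2. Cdkn2c-201, which starts 1817 bases downstream at the start whose preceding sequence is printed above, had 0.56 TPM in replicate 1 against 11.7 TPM in replicate 2. In expected counts it had 13.4 in replicate 1 and 586 in replicate 2. Cdkn2c-201 was thus assigned 0.125% of the gene's counts in replicate 1 and 4.03% in replicate 2. Both models end at chr4:109660876 and share their coding sequence. The division between them is an estimate and does not measure the use of each start.

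For Cdkn1a, Cdkn1a-202 from the upstream start made up 89.6% of TPM in replicate 1 and 81.4% in replicate 2. Cdkn1a-201, which starts 2790 bases downstream, made up 9.29% in replicate 1 and 18.6% in replicate 2, and Cdkn1a-203 made up 1.15% in replicate 1 and 0% in replicate 2. The upstream start is the one preceded by the p53 pair. Cdkn1a-202 was counted with a length of 748 bases and Cdkn1a-201 with 1910 bases. In the annotation the 2 models also end apart, at chr17:29099701 for Cdkn1a-202 and chr17:29100722 for Cdkn1a-201. Their division therefore does not measure the choice of start alone. In expected counts, without scaling to length, the share of Cdkn1a-202 was 76.0% in replicate 1 and 59.8% in replicate 2. Cdkn1a-202 stayed ahead on both scales.

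For Cdkn1b, both transcripts start at the same base. Cdkn1b-201, with 2393 bases, made up 94.0% of TPM in replicate 1 and 88.7% in replicate 2. The longer Cdkn1b-202, with 4552 bases, made up 6.04% in replicate 1 and 11.4% in replicate 2. Its share of expected counts was 11.2% in replicate 1 and 20.1% in replicate 2. In all 3 genes the leading transcript took a smaller share in replicate 2. Whether the same holds for other genes with several transcripts was not tested.

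**Figure D3:**
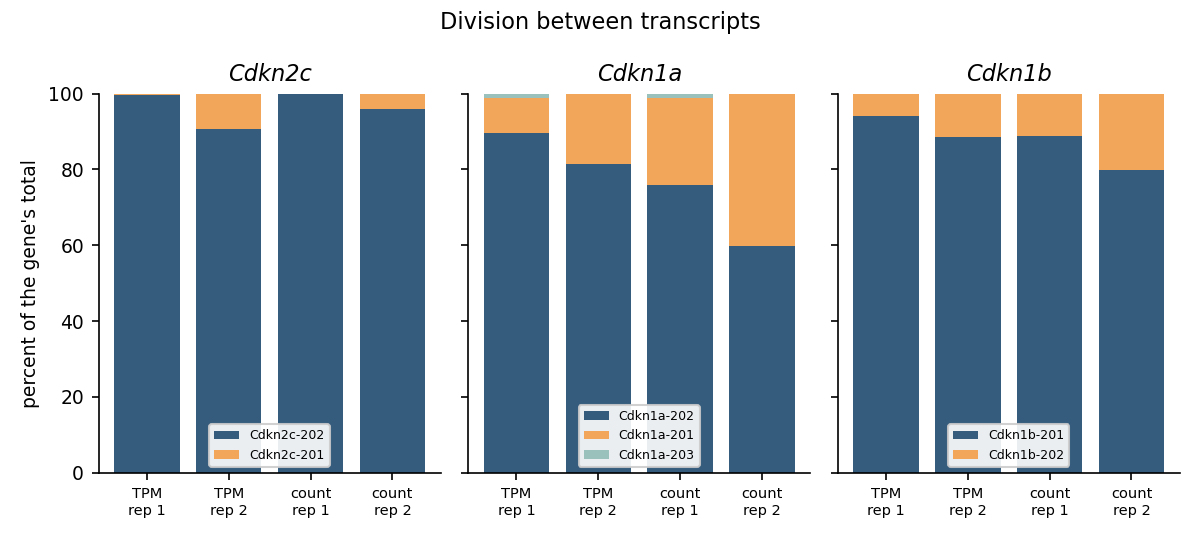
Stacked bars of the percent of Cdkn2c, Cdkn1a and Cdkn1b assigned to each transcript, as a share of TPM and as a share of expected counts, in replicate 1 and replicate 2. The leading transcript holds 81.4% to 99.7% of TPM, and the lowest share of counts is 59.8% for Cdkn1a-202 in replicate 2.

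The libraries were compared gene by gene in expected counts scaled by the trimmed mean of M-values (TMM), as log2 ratios of replicate 1 over replicate 2. With 1 group there is no test between conditions, so the ratios describe only how far the libraries lie apart. Genes with a summed count of at least 20 were considered. None of the 5 inhibitor genes that passed lay at least 2-fold apart, against 26.8% of all 10635 genes that passed. By direction, 7.32% of all genes were at least 2-fold higher in replicate 1 and 19.5% in replicate 2.

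The log2 ratio was 0.27 for Cdkn2c (exact conditional 95% interval for counting error 0.23 to 0.31), 0.27 for Cdkn1b (0.22 to 0.33) and 0.15 for Cdkn1a (0.06 to 0.25). It was −0.96 for Cdkn2d (−1.14 to −0.80), a 1.95-fold lower level in replicate 1 that lay just inside the 2-fold limit. For Cdkn3 it was −0.75 (−1.17 to −0.36). No interval included 0, so the 3 abundant members were higher in replicate 1 and Cdkn2d and Cdkn3 lower, beyond counting error. The median over all genes that passed was −0.06. Scaling by total counts moved that median to 0.11 and the ratio of TPM to 0.22, and it moved the share of 2-fold genes that were higher in replicate 1 from 27.3% to 42.1% and 53.4%. The sign of each detected member was the same under all these scalings.

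**Figure D4:**
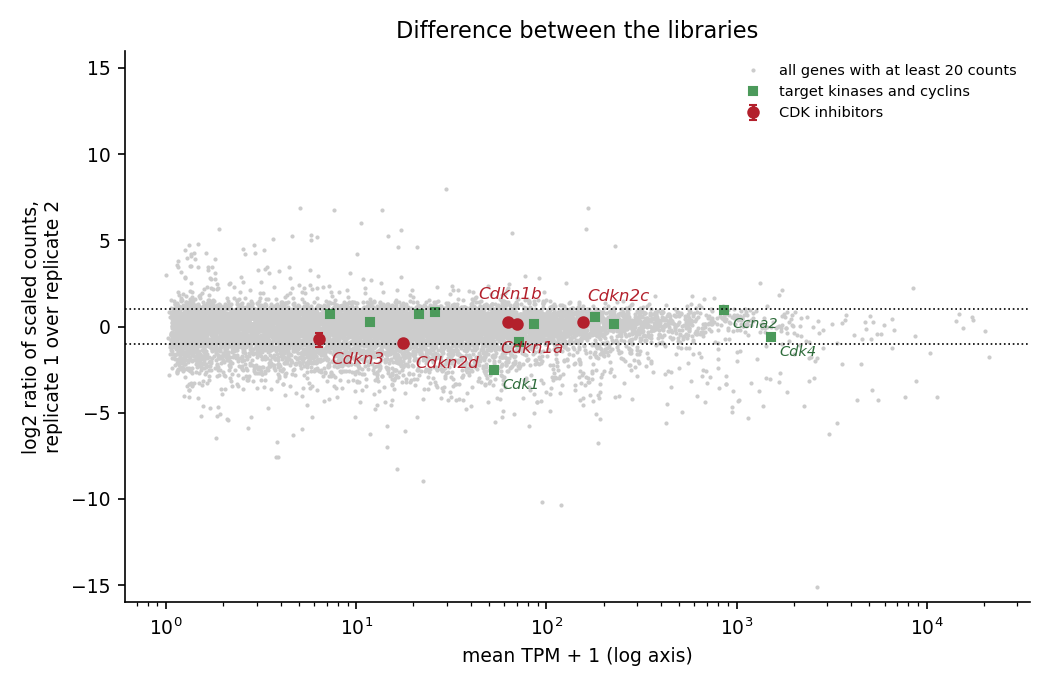
Log2 ratio of scaled counts of replicate 1 over replicate 2 against mean TPM plus 1 on a log axis, for all 10635 genes with at least 20 counts (grey), the target kinases and cyclins (green) and the CDK inhibitors (red, with 95% counting intervals). Dotted lines mark 2-fold, and the 5 inhibitors lie between −0.96 and 0.27.

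The inhibitors were then set beside the kinases they bind. Sums of TPM are scaled to length, so they can be compared within a library, here as log2 ratios with 1 TPM added to each sum. The INK4 genes summed to 197 TPM in replicate 1 against 147 TPM in replicate 2. Their targets Cdk4 and Cdk6 summed to 1298 TPM in replicate 1 against 1777 TPM in replicate 2. The log2 ratio of the INK4 sum over that of the kinases was −2.71 in replicate 1 and −3.59 in replicate 2, a mean of −3.15 ± 0.62 (SD, n = 2). Cdk4 made up nearly all of the kinase sum, with 1271 TPM in replicate 1 against 1763 TPM in replicate 2. Cdk6 had 27.1 TPM in replicate 1 against 13.9 TPM in replicate 2.

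The CIP/KIP genes summed to 161 TPM in replicate 1 against 100 TPM in replicate 2. Cdk2 and Cdk1 summed to 40.8 TPM in replicate 1 against 113 TPM in replicate 2. Their log2 ratio over these kinases was 1.96 in replicate 1 and −0.17 in replicate 2, a mean of 0.89 ± 1.51 (SD, n = 2), so on the TPM scale its direction differed between the libraries. In expected counts, not scaled to length, the CIP/KIP genes were the higher in both, with 6031 counts against 2159 for the kinases in replicate 1 and 8422 against 3854 in replicate 2, log2 ratios of 1.48 and 1.13. The TPM ratio moved with Cdk1, the mitotic kinase, which had 5.77 TPM in replicate 1 against 98.2 TPM in replicate 2, while Cdk2 had 35.0 TPM in replicate 1 against 15.1 TPM in replicate 2. In scaled counts Cdk1 was 5.72-fold lower in replicate 1, from 218 and 2068 expected counts. Its transcripts were also divided differently. Cdk1-204, a model of 475 bases, had no count in replicate 1 but 1605 in replicate 2, where it made up 96.6% of the gene's TPM. The effective length of Cdk1 was 1522 bases in replicate 1 and 402 bases in replicate 2, and a shorter effective length gives more TPM per count.

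Cdkn3 over the same kinases gave −2.91 in replicate 1 and −3.99 in replicate 2, a mean log2 ratio of −3.45 ± 0.76 (SD, n = 2). The INK4 sum over the CIP/KIP sum gave 0.29 in replicate 1 and 0.54 in replicate 2, a mean of 0.42 ± 0.18 (SD, n = 2). INK4 RNA, nearly all of it Cdkn2c, was the larger in both libraries.

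**Figure D5:**
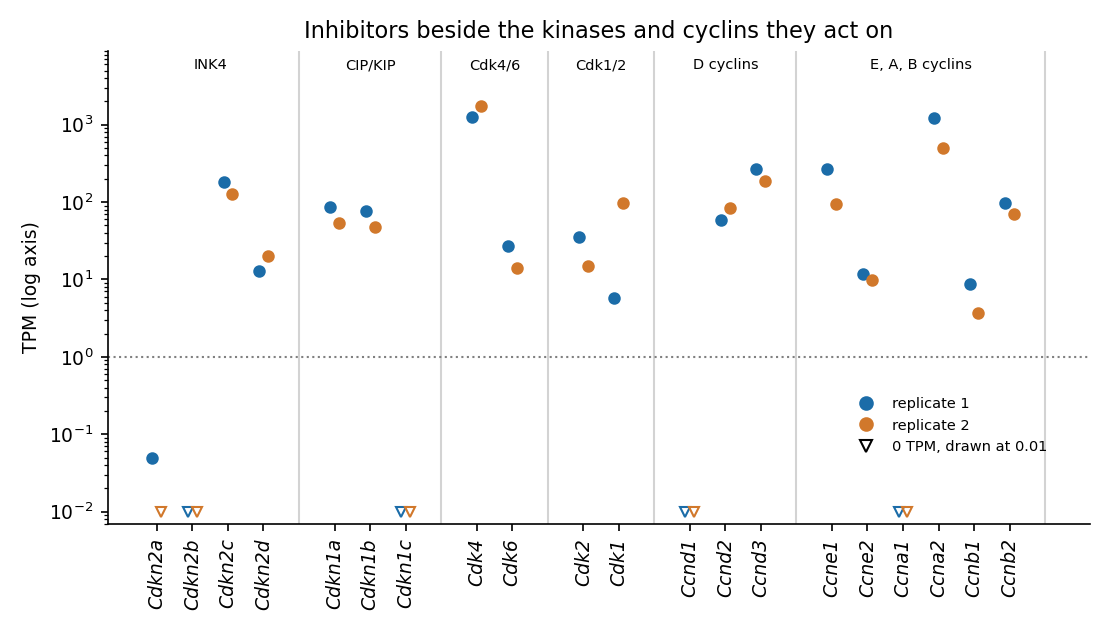
TPM on a log axis of the INK4 and CIP/KIP genes beside their target kinases and the cyclins, in replicate 1 and replicate 2, with genes at 0 TPM drawn as open triangles at 0.01. Cdk4, at 1271 and 1763 TPM, stands above every inhibitor, and Cdk1 differs most between the libraries, at 5.77 and 98.2 TPM.

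The cyclins that partner these kinases were mostly detected, beside 38.6% of all protein-coding genes. Among the D cyclins, which INK4 proteins displace from CDK4 and CDK6, Ccnd3 had 268 TPM in replicate 1 against 184 TPM in replicate 2, and Ccnd2 had 58.1 TPM in replicate 1 against 83.7 TPM in replicate 2. Ccnd1 had no count. Among the partners of CDK2 and CDK1, Ccna2 led with 1209 TPM in replicate 1 against 503 TPM in replicate 2. Ccne1 had 266 TPM in replicate 1 against 93.9 TPM in replicate 2, and Ccne2 had 11.9 TPM in replicate 1 against 9.86 TPM in replicate 2. Of the mitotic cyclins, Ccnb2 had 98.4 TPM in replicate 1 against 70.9 TPM in replicate 2, and Ccnb1 had 8.80 TPM in replicate 1 against 3.71 TPM in replicate 2. Ccna1, the germ-line A cyclin, had no count. No cyclin lay at least 2-fold apart in scaled counts, against 26.8% of all genes that passed, though Ccna2 came near at a log2 ratio of 0.98. In TPM, Ccna2, Ccne1 and Ccnb1 lay more than 2-fold apart.

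Other proteins set CDK activity alongside the inhibitors. All 5 genes of the tyrosine kinases and phosphatases that act on CDKs were detected, beside 38.6% of all protein-coding genes. The inhibitory kinases Wee1 and Pkmyt1 had 38.5 and 96.1 TPM in replicate 1 and 17.3 and 62.6 TPM in replicate 2. Of the activating phosphatases, Cdc25a had 54.8 TPM in replicate 1 against 37.6 TPM in replicate 2. Wee1, Pkmyt1 and Cdc25a lay within 2-fold in scaled counts. Cdc25b was lower in replicate 1, at 7.01 TPM against 18.1 TPM in replicate 2 (log2 ratio −1.71). Cdc25c was higher in replicate 1, at 10.4 TPM against 3.41 TPM in replicate 2 (log2 ratio 1.26). Of the CDK-activating kinase, Ccnh had 45.1 TPM in replicate 1 against 41.4 TPM in replicate 2, Mnat1 had 2.90 TPM in replicate 1 against 1.71 TPM in replicate 2, and Cdk7 had 0.97 TPM in replicate 1 against 2.47 TPM in replicate 2 (log2 ratio −1.70).

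All 6 genes of other CDK-binding proteins were detected, beside 38.6% of all protein-coding genes. Of the 6, 1 lay at least 2-fold apart, beside 26.8% of all genes that passed. Cks2, a small subunit bound by CDKs, had 38.1 TPM in replicate 1 against 289 TPM in replicate 2 (log2 ratio −3.24), while its relative Cks1b, which helps the SKP2 ligase recognise p27, had 104 TPM in replicate 1 against 107 TPM in replicate 2. Cdk2ap1 had 304 TPM in replicate 1 against 194 TPM in replicate 2, and Cdk2ap2 had 91.4 TPM in replicate 1 against 53.2 TPM in replicate 2. Cdkn2aip and Cdkn2aipnl, whose names come from binding to the Arf product of Cdkn2a or from likeness to such a protein, had 6.80 and 72.1 TPM in replicate 1 and 2.80 and 54.0 TPM in replicate 2. They were thus detected where Cdkn2a was not.

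All 12 genes listed for turnover of p27 and p21 were detected, beside 38.6% of all protein-coding genes. Of the 12, 1 lay at least 2-fold apart, beside 26.8% of all genes that passed. The most abundant were Ubac1, a subunit of a ligase for p27, at 200 TPM in replicate 1 against 199 TPM in replicate 2, Cul4a, at 232 TPM in replicate 1 against 79.2 TPM in replicate 2, and Usp19, at 177 TPM in replicate 1 against 108 TPM in replicate 2. In scaled counts Cul4a had a log2 ratio of 0.46, with an effective length of 1037 bases in replicate 1 and 1717 bases in replicate 2. Rbx1, the ring subunit of cullin ligases, had 2.76 TPM in replicate 1 against 26.9 TPM in replicate 2 (log2 ratio −3.61). Skp2, the subunit that recognises p27, had 6.16 TPM in replicate 1 against 9.06 TPM in replicate 2. The RB family, the brakes that CDK4 and CDK2 inactivate, was detected in full. Rb1 had 33.4 TPM in replicate 1 against 15.5 TPM in replicate 2, Rbl1 had 23.5 TPM in replicate 1 against 9.54 TPM in replicate 2, and Rbl2 had 6.02 TPM in replicate 1 against 3.24 TPM in replicate 2.

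Of 20 transcription factors and cofactors known to act on CDK inhibitor genes, 15 were detected and 2 lay at least 2-fold apart. Among all protein-coding genes 38.6% were detected, and 26.8% of all genes that passed lay at least 2-fold apart. Gata1 had 190 TPM in replicate 1 against 799 TPM in replicate 2 (log2 ratio −2.41), and in this line its counts come from the fusion gene or from what remains of the disrupted gene, which gene counts cannot tell apart. Myc, which represses Cdkn1a and Cdkn2b in other cells, had 324 TPM in replicate 1 against 467 TPM in replicate 2. Gfi1b, an erythroid repressor, had 186 TPM in replicate 1 against 370 TPM in replicate 2 (log2 ratio −1.34). Of 10 Polycomb proteins and other regulators of the Cdkn2a locus, 9 were detected and none lay at least 2-fold apart with TMM scaling. Suz12 lay just inside that limit, at a log2 ratio of 0.999. The highest were Eed at 145 TPM in replicate 1 against 345 TPM in replicate 2, Suz12 at 194 TPM in replicate 1 against 76.2 TPM in replicate 2, and Bmi1 at 141 TPM in replicate 1 against 85.7 TPM in replicate 2. In scaled counts Eed had a log2 ratio of −0.53, with an effective length of 865 bases in replicate 1 and 412 bases in replicate 2. Whether these regulators act on Cdkn2a here was not tested.

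Genes of the cell cycle phases were compared in the same way. Among all genes, 7.32% were at least 2-fold higher in replicate 1 and 19.5% in replicate 2. Of all protein-coding genes 38.6% were detected. All 25 G2/M genes were detected, 2 of them at least 2-fold higher in replicate 1 and 3 in replicate 2, with a median log2 ratio of −0.16. The highest were Cenpa, at 732 TPM in replicate 1 against 341 TPM in replicate 2, Ube2c, at 634 TPM in replicate 1 against 213 TPM in replicate 2 (log2 ratio 1.24), and Cdc20, at 531 TPM in replicate 1 against 313 TPM in replicate 2. The widest gap was that of Birc5, at 9.84 TPM in replicate 1 against 152 TPM in replicate 2 (log2 ratio −3.68). Of 20 G1/S genes 19 were detected, none at least 2-fold higher in replicate 1 and 9 in replicate 2, with a median of −0.94. They were led by Slbp, at 409 TPM in replicate 1 against 258 TPM in replicate 2, Rrm2, at 89.1 TPM in replicate 1 against 511 TPM in replicate 2 (log2 ratio −2.88), and Mcm2, at 281 TPM in replicate 1 against 289 TPM in replicate 2. Over all 128 listed genes, 111 were detected. Of 115 with enough counts, 3 lay at least 2-fold higher in replicate 1 and 20 in replicate 2. Together these were 20%, beside 26.8% of all genes. The median over the listed genes was 0.05, beside −0.06 over all genes.

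For each detected inhibitor the nearest listed gene was found by the distance of log2(TPM + 1) over the 2 libraries, which compares levels and nothing else. Cdkn2c lay nearest to Usp19 (distance 0.235) and Mdm4 (0.278), and Cdkn1a to Ung (0.0458) and Cdk2ap2 (0.0995). Cdkn1b lay nearest to Ezh2 (0.174) and Cdkn2aipnl (0.204). Cdkn2d lay nearest to Aurka (0.426) and Kif23 (0.629), both genes of mitosis, and Cdkn3 to Cbx7 (0.286) and Skp2 (0.608). With 2 libraries such likeness has little room to differ and is a description only.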

How the data were processed

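The data are polyadenylated RNA profiles of G1E-ER4 cells given estradiol, 1 group with 2 libraries. The deposited tables were made on assembly mm10 with GENCODE M4, per the text deposited with them. For the aligner, the quantifier and the use of strand in counting, the names and settings were not given in the sources used here. The deposited expected counts are estimated fragments per gene or transcript, not normalised. The deposited TPM and FPKM values are scaled to effective length and library, per the file headers. The deposited percent for each transcript is its share of the gene's TPM. FPKM and the authors' posterior means served as alternatives.

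Expected counts were rounded to whole numbers, and those of the 8 members were whole within 0.005. Names and coordinates came from GENCODE M21 on GRCm38, in which no gene overlaps a member, and 42462 of 43346 mouse identifiers matched a symbol. Other entries, 26345 in all with 1 count in replicate 1 and 0 in replicate 2, were left out. Library sizes were scaled with TMM (edgeR 4.0.16) and, as an alternative, DESeq2 1.42.0 size factors. Ratios between libraries used a prior count of 2, and ratios between genes a pseudocount of 1 TPM. With 1 library on each side no test has residual degrees of freedom, so no p-value is given. Intervals and the limit of 3 counts for a 0 cover counting error only. The members and gene lists were chosen with earlier results of these data known. All 8 members were named, with every listed kinase, cyclin, other direct CDK regulator and neighbour. Of each other list the 3 highest genes and the genes furthest apart past 2-fold in each direction were named, and for each detected member the 2 nearest listed genes.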

Additional observations from a re-analysis of the deposited data

How the results depend on the processing

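All 5 detected members kept the sign of their ratio between libraries under the 5 alternatives of scaling, count type and prior, and none lay 2-fold apart under any. Their sizes moved more: with TPM the log2 ratio was 0.67 for Cdkn1a against 0.15, and −0.37 for Cdkn3 against −0.75. The mean level of Cdkn2a was 0.105 TPM with posterior means, against 0.025 TPM. In shares of expected counts, an alternative chosen after seeing the data, the leading transcript held 67.9% of Cdkn1a and 84.4% of Cdkn1b, against 85.5% and 91.3% of TPM. In expected counts not scaled to length, the log2 ratio was −1.32 for INK4 over Cdk4 and Cdk6 against −3.15, −4.57 for Cdkn3 over Cdk2 and Cdk1 against −3.45, 0.89 for INK4 over CIP/KIP against 0.42, and 1.30 for CIP/KIP over Cdk2 and Cdk1 against 0.89. In TPM the ratio of CIP/KIP over Cdk2 and Cdk1 turned with the library left out, from −0.17 without replicate 1 to 1.96 without replicate 2, while in expected counts it was above 0 in both libraries. Detection at 5 TPM left 4 members. Of the 128 listed genes, 23 lay at least 2-fold apart with TMM, 25 with DESeq2 size factors and 30 with total counts. No paired analysis was possible because there was 1 group. Depth limits Cdkn2a, Cdkn2b and Cdkn1c to upper bounds and leaves Cdkn3, the detected member with the fewest counts, with the widest interval of the log2 ratio. With 2 libraries, biological and technical spread cannot be told apart.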
